A study of Rattus norvegicus with 4 samples.

Results

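The genes described here are 40 markers of the brain's blood vessels, 30 of endothelial cells and the blood-brain barrier and 10 of mural cells, the pericytes and smooth muscle cells around the endothelium. They were chosen by symbol as known markers of these cells, with earlier results of these data known. Of the 40 genes, 37 had a probe that could be named on the array, out of 15443 named genes in all. Endothelial cells line every vessel and in the brain are sealed by tight junctions, so that nutrients cross through transporters and many drugs are pumped back into the blood. Pericytes sit on the capillary wall and help to keep the barrier closed, and smooth muscle cells around arterioles and larger vessels contract to set blood flow.

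The study asked how gene expression in 2 brain regions differs between rats that behave in a depressive manner and rats that do not. In the forced swimming test, a rat that spends more time immobile is read as more depressive-like. Male rats were compared: 106 normal rats were tested, the depressive group was chosen for depressive-like behaviour in the test and the control group for average behaviour, and the sources used here give neither strain nor age. Cerebellum and prefrontal cortex of each group gave 4 samples, each a pool of equal amounts of RNA from 4 rats on 1 array, so that the spread between rats was not measured.

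Per the labels, 50 rats were killed 1 week after the test, the vessels were washed with cold saline through the heart, and coronal slices 1 mm thick were taken. The prefrontal cortex slice lay 3.2 to 4.2 mm in front of the bregma and the cerebellum slice 9.8 to 10.8 mm behind it, so each sample held every cell type of the slice, meninges and vessels included. In such bulk tissue, fewer cells of a type and less RNA per cell cannot be told apart. Between 22201 and 23759 of 30367 probes were well above background on an array. A signal is given below as a percent of the 75th percentile of its own array, which was 4020 (control) and 4369 (depressive) for cerebellum and 3116 and 3278 for prefrontal cortex. Probes of different genes differ in brightness, so these percents compare arrays and never genes.

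The scanner files linked to control prefrontal cortex and to depressive cerebellum appeared exchanged. The deposited value table, which is keyed by sample, correlated with the files read that way at 0.99989 to 0.99998 on the log2 scale, and at 0.933 with the files as linked to those 2 samples. The 2 arrays used as cerebellum carried the tissue's markers: all 12 cerebellar genes in the test below were higher there and all 8 cortical genes were lower. Such markers say nothing of an array's state, control or depressive. With files as linked, each tissue holds 1 cerebellar and 1 cortical array by these markers, and the 2 states are then split by tissue. Values with files as linked are given beside the main results.

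Of the 37 genes with a named probe, 36 were well above background on at least 1 array and 35 on all 4. Vwf, Egfl7 and Robo4 had no named probe and were not analysed here. Cnn1, calponin of smooth muscle, was not well above background on any array, and Sox17, a transcription factor of arterial endothelium, was not on the depressive cerebellum array. Of the 35 genes, 30 were read by 2 spots on an array and 5 by 9 or 10 spots (Tjp1, Slc2a1, Nos3, Icam1 and Vcam1), which gives those a smaller spot error.

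**Figure D1:**
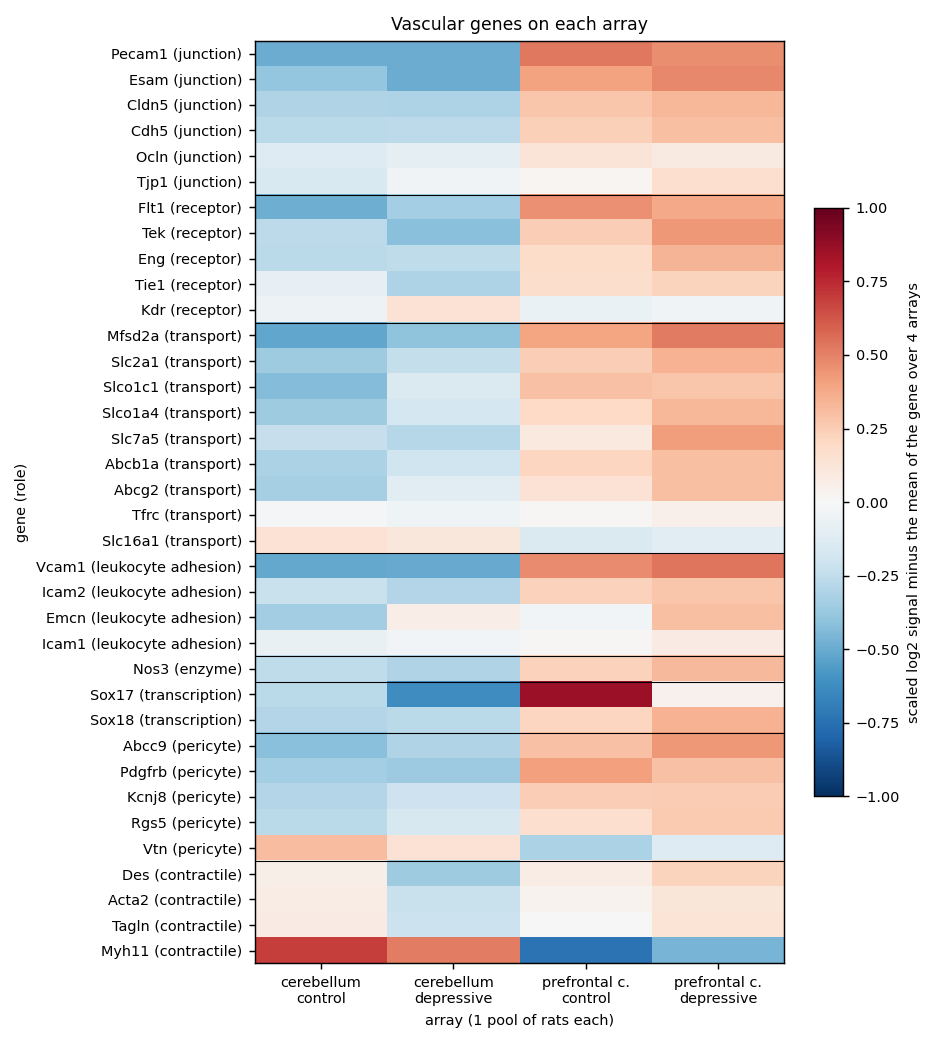
Scaled log2 signal of 36 endothelial and mural genes (rows, grouped by role) on the 4 arrays (columns, 1 pool of 4 rats each), minus the gene's own mean over the 4 arrays. Most genes are blue on both cerebellum arrays and red on both prefrontal cortex arrays, while Myh11 and Vtn run the other way and Tagln, Acta2 and Des are lowest on the depressive cerebellum array.

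The first comparison was cerebellum against prefrontal cortex, 2 arrays a side, in a limma fit over 11623 genes with the state as a block. Most endothelial genes were lower in the cerebellum: of 26 tested, 22 were lower, 1 was higher and 3 did not pass at an adjusted p of 0.05. The median over the 27 measured endothelial genes was -0.53 on the log2 scale, against -0.04 over all 13051 genes measured. Mural genes were divided, with 4 of 9 lower, 2 higher and 3 not passing, and a median of -0.30. The fit called 72.8% of all tested genes, 38.0% lower in the cerebellum and 34.7% higher, so a call by itself was common. The shares among endothelial genes were 84.6% lower and 3.85% higher, and among mural genes 44.4% and 22.2%. In this fit 2 pools stand for each tissue and the residual has 1 degree of freedom, so its p-values rest largely on the spread shared over genes. Leaving out an array left 3, too few to test tissue with the state term, so those fits also dropped that term and 2 choices changed together. Of the 29 vascular genes called, 20 were called in each such fit, 19 of them lower in the cerebellum and 1 higher, Myh11. Of the 9 lost in at least 1 of them, 7 were still called on all 4 arrays with no state term and 2, Tjp1 and Emcn, were not. Where a value without an array is given below, it comes from these fits. With scanner files as linked, 0 were called and the endothelial and mural medians were -0.038 and -0.011.

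All 6 junction genes were lower in the cerebellum. Pecam1, an adhesion molecule where endothelial cells meet, gave 27.6% and 27.6% in control and depressive cerebellum and 56.2% and 53.7% in control and depressive prefrontal cortex. Both cerebellum values were well below both cortical ones, and the tissues did not overlap. The difference was 1.99-fold (log2 -0.99, SE 0.052, limma adjusted p = 0.000936). Esam, an adhesion molecule of endothelial tight junctions, was 1.85-fold lower in the cerebellum (log2 -0.88, SE 0.072). For Cldn5, the main claudin of the blood-brain barrier's tight junctions, the arrays gave 153% and 151% in cerebellum against 227% and 236% in prefrontal cortex. The pools of a tissue lay close together and the tissues apart, a 1.52-fold difference (log2 -0.61, SE 0.052, limma adjusted p = 0.00246). Cdh5, the cadherin of endothelial adherens junctions, was 1.45-fold lower (log2 -0.53).

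Ocln and Tjp1, a membrane protein and a scaffold of tight junctions that epithelial cells also make, stood closer to 0 at log2 -0.22 and -0.19. Neither call held throughout. Ocln's adjusted p was 0.0617 without control cerebellum, 0.0835 without control prefrontal cortex and 0.0587 without depressive prefrontal cortex, and its call held without depressive cerebellum. Tjp1 was not called on all 4 arrays once the state term was dropped (limma adjusted p = 0.0961), nor in any of the 3-array fits (0.0812 to 0.340), so its call rested on that term. Under median scaling the difference was -0.14 for Ocln and -0.11 for Tjp1, and neither was called.

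Of 5 receptors measured, 4 were lower in the cerebellum. Flt1 and Kdr are receptors of vascular endothelial growth factor, Flt1 mostly a trap and Kdr the main signalling receptor of endothelium. Flt1 gave 4.27% and 4.72% in cerebellum and 8.23% and 7.78% in prefrontal cortex, 1.78-fold lower without overlap (log2 -0.83, SE 0.079, limma adjusted p = 0.00302). For Kdr, 81.2% and 92.8% in cerebellum stood beside 80.1% and 82.1% in prefrontal cortex, a log2 difference of 0.098 (SE 0.065) that did not pass (limma adjusted p = 0.250). Kdr's control cerebellum value lay within the prefrontal range. Tek and its partner Tie1, receptors of the angiopoietin system that steadies mature vessels, were 1.60-fold and 1.32-fold lower, and Eng, a co-receptor for TGF-beta family ligands, 1.44-fold lower. Tek was dim, at 1.98% to 3.57%, and its spot SE of 0.21 was wider than its fit SE of 0.10. Tie1's adjusted p was 0.0631 without control prefrontal cortex and 0.0825 without depressive prefrontal cortex.

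Among 9 transport genes, 7 were lower in the cerebellum, 1 was higher and 1 did not pass. Mfsd2a carries lysolipids of omega-3 fatty acids into the brain and limits vesicle traffic across brain endothelium. It gave 31.3% and 34.1% in cerebellum against 59.1% and 64.4% in prefrontal cortex, and in control and depressive pools the difference was the same to 2 decimals (log2 -0.92 and -0.92). That was 1.89-fold lower in the cerebellum (SE 0.049, limma adjusted p = 0.000954). Slc2a1, the glucose transporter of barrier endothelium, gave 375% and 407% in cerebellum and 571% and 610.0% in prefrontal cortex, 1.51-fold lower (log2 -0.59, SE 0.049). The tissues were again apart by more than either pair of pools.

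The organic anion carriers Slco1a4 and Slco1c1, the latter a thyroxine transporter, were 1.44-fold and 1.49-fold lower. The drug efflux pumps Abcb1a (P-glycoprotein) and Abcg2 were 1.43-fold and 1.36-fold lower, and Slc7a5, a carrier of large neutral amino acids, 1.43-fold lower. Abcb1a was dim, at 3.17% to 4.87%, and its spot SE of 0.17 was wider than its fit SE of 0.050. For 3 of these genes a 3-array fit ended the call, with an adjusted p of 0.0511 for Slco1c1 without control prefrontal cortex, 0.0868 for Abcg2 without depressive prefrontal cortex and 0.0613 for Slc7a5 without depressive cerebellum.

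Slc16a1, a carrier of lactate and ketone bodies that glia also make, was the only endothelial gene called higher, at 21.8% and 21.4% in cerebellum and 17.9% and 18.3% in prefrontal cortex (log2 0.26, SE 0.051, limma adjusted p = 0.0181; 0.0565 without control prefrontal cortex). Tfrc, the transferrin receptor through which iron enters the brain and which neurons also carry, differed by log2 -0.062 (SE 0.051) at its brighter probe and did not pass. Its other probe, dimmer but well above background on all 4 arrays, gave -0.49, and the mean over both, -0.28, was called, so the probes disagree.

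Of 4 genes of leukocyte adhesion, 3 were lower. Vcam1, the endothelial ligand of leukocyte integrins, had the lowest log2 difference of the 36 genes. Its arrays gave 99.9% and 101% in cerebellum and 198% and 207% in prefrontal cortex. The pools of each tissue were close and the tissues differed 2.02-fold (log2 -1.01, SE 0.051, limma adjusted p = 0.000851). Icam2, made constantly by resting endothelium, was 1.43-fold lower, while Icam1, which inflammation induces, differed by log2 -0.099 (SE 0.049, limma adjusted p = 0.153). Emcn, endomucin, a sialoglycoprotein of capillaries and veins that hinders leukocyte contact, was 1.21-fold lower (log2 -0.28, limma adjusted p = 0.0170). Its call also rested on the state term: with that term dropped the adjusted p was 0.234 on all 4 arrays and 0.0657 to 0.719 in the 3-array fits. In control and depressive pools taken apart the difference was -0.32 and -0.24. Nos3, which makes nitric oxide in endothelium, and Sox18, an endothelial transcription factor, were 1.47-fold and 1.48-fold lower. Sox17 was too dim for the fit, and in depressive pools it was at least 1.45-fold lower in cerebellum, a bound because the cerebellum array did not measure it well above background.

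**Figure D2:**
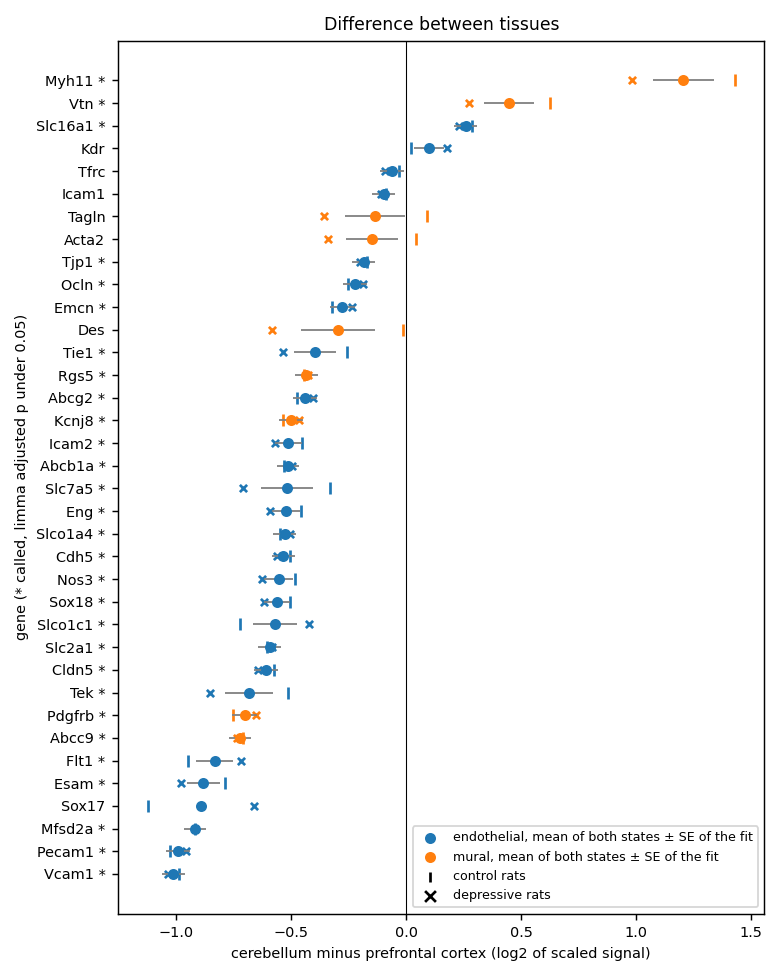
Cerebellum minus prefrontal cortex for 36 vascular genes (log2 of scaled signal), with the mean of both states as a dot, the SE of the fit as a bar, and each state's own value as a tick (control) or cross (depressive). Most endothelial dots (blue) lie between -1.01 and -0.19, and Myh11 stands far to the right among mural genes (orange) at 1.21.

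Pericyte and contractile genes of the mural group differed in what they showed. Of 5 pericyte genes, 4 were lower in the cerebellum and 1 higher. Pdgfrb, the receptor for the growth factor by which endothelium recruits pericytes, gave 13.6% and 13.5% in cerebellum and 23.0% and 21.2% in prefrontal cortex, 1.63-fold lower without overlap (log2 -0.70, SE 0.056, limma adjusted p = 0.00204). Abcc9 and Kcnj8, the subunits of the potassium channel of pericytes that ATP closes, were 1.65-fold and 1.41-fold lower, and Rgs5, a brake on G protein signalling, 1.35-fold lower. Abcc9 had 3 probes, of which the other 2 were not well above background on any array.

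Vtn, vitronectin, a matrix protein secreted by pericytes, was the exception. It gave 164% and 146% in cerebellum and 106% and 121% in prefrontal cortex, 1.36-fold higher without overlap (log2 0.45, SE 0.11, limma adjusted p = 0.0294; 0.0606 without control prefrontal cortex).

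Of 4 contractile genes, Myh11 alone was called. This smooth muscle myosin heavy chain gave 48.2% and 42.5% in cerebellum and 17.9% and 21.5% in prefrontal cortex. Both cerebellum values were well above both cortical ones, and the difference was 2.31-fold (log2 1.21, SE 0.13, limma adjusted p = 0.00416), with 1.30 at its other probe. Acta2, smooth muscle actin, Tagln, an actin-binding protein, and Des, the intermediate filament desmin, differed by log2 -0.15, -0.13 and -0.30 with SEs of 0.11, 0.13 and 0.16, and none passed. In these 3 genes the control pools differed by 0.041, 0.089 and -0.014 and the depressive pools by -0.34, -0.36 and -0.58. The mural median over 3 arrays was -0.089 without depressive cerebellum and -0.38 without control cerebellum.

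Further vascular genes outside the 40 gave the wider picture. Of 29 other endothelial genes tested, 19 were lower in the cerebellum and 5 higher (median -0.45 over 30 measured). Cd34, a surface sialomucin of endothelium, was lower at log2 -2.25 (limma adjusted p = 0.002), and Plvap, a protein of the diaphragms of leaky vessels such as those of the choroid plexus, was higher at 3.66. Of 26 other barrier genes tested, 9 were lower and 7 higher (median -0.04). Among 26 other mural genes, 12 were lower and 5 higher, from Lmod1, a smooth muscle actin nucleator, at log2 -1.92 to Casq2, a calcium store protein of muscle that has other sources in brain, at 4.88. Among 25 genes of angiogenic signalling 13 were lower and 5 higher, and among 12 genes of the Wnt pathway that induces the barrier 7 were lower and 4 higher, Wnt7a, one of its ligands, at -1.79.

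Markers of other cells also differed between the tissues. The 7 choroid plexus genes tested and 11 of 12 meningeal fibroblast genes were higher in the cerebellum (medians 5.41 and 1.37), 7 of 11 microglia and macrophage genes were lower (median -0.93 over 12 measured), and 4 of 9 astrocyte genes were lower and 4 higher (median -0.15). Summed over the list, the scaled signal of meningeal genes was 100.3 in control and 110.2 in depressive cerebellum, and 22.2 and 42.3 in prefrontal cortex. In the same order it was 185.2, 185.2, 9.66 and 3.43 for choroid plexus genes and 11.8, 12.5, 26.1 and 24.8 for microglial genes. The choroid plexus and meningeal sums mostly follow their brightest genes, Ttr and Ptgds. Before scaling, Ttr gave 681801, 706335, 25617 and 6076 in the same order, and Ptgds 304850, 362321, 51142 and 107598. These 2 sums thus say little of the other genes of their lists. In prefrontal cortex, Kl, a choroid plexus gene, was below the background call in both pools. The part of these cells in the vascular differences was not tested.

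The comparison of depressive with control rats had 1 array a group within a tissue, and so no test there. A gene is counted below where the states differed by 0.32 or more on the log2 scale, and the SE given is that between spots of an array, which leaves out the spread between rats and pools. In the cerebellum 1 of 36 vascular genes was higher by that much in the depressive pool and 2 were lower, where 10.8% of all 12680 genes measured were past it, 3.86% higher and 6.99% lower. In the prefrontal cortex 2 of 36 were higher and 1 lower, where 7.59% of 12572 genes were past it, 4.36% higher and 3.23% lower. The endothelial medians were 0.021 in cerebellum and 0.069 in prefrontal cortex and the mural medians -0.17 and 0.14, against -0.028 and -0.0080 over all genes. In the prefrontal cortex 30 of 36 genes were above 0, beside 47.2% of all genes. In the cerebellum 20 of 36 were above 0, beside 39.8%. Other backgrounds and scalings gave 29 to 31 and 18 to 23. With files as linked, the endothelial medians were 0.51 and 0.57 and the mural medians 0.014 and 0.43, values that then hold the difference between tissues.

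With the 2 tissues standing in as replicates, the limma fit of state called 0 of the 35 vascular genes and 0.0% of the 11623 genes. The labels do not say whether the cerebellum and prefrontal cortex pools of a state came from the same rats. If they did, the tissues are not independent replicates of state, and a difference seen in both is not an independent repeat. At an unadjusted p under 0.05 it held 3 vascular genes, Emcn, Abcg2 and Slco1a4, beside 7.78% of all genes. After normexp background correction 5 genes were called in all, none of them vascular, and with files as linked 29 vascular genes were.

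Emcn was higher in both depressive pools. Its signal was 9.97% in control and 13.3% in depressive cerebellum, and 12.5% in control and 15.7% in depressive prefrontal cortex. The lowest depressive value lay above the highest control value. The fold was 1.33 in cerebellum (log2 0.41, spot SE 0.094) and 1.26 in prefrontal cortex (log2 0.33, spot SE 0.092). Emcn was the only vascular gene higher by 0.32 or more in both. The dim gene Sox17, described below, was past 0.32 downward in both. The fit gave a log2 difference of 0.37 (SE 0.054, limma adjusted p = 0.641). Under the 5 other background, scaling and probe settings the cerebellum value was 0.35 to 0.45 and the prefrontal cortex value 0.27 to 0.33.

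Abcg2 gave 37.5% and 43.9% in control and depressive cerebellum and 52.2% and 58.2% in prefrontal cortex. The depressive pool was higher in both tissues, 1.17-fold (log2 0.23, spot SE 0.066) and 1.11-fold (log2 0.16, spot SE 0.060). For Slco1a4 the values were 112% and 127%, then 165% and 181%, with log2 differences of 0.18 and 0.13. The limma adjusted p was 0.641 for both. Tjp1 (log2 0.12 and 0.15, spot SEs 0.024 and 0.026) and Slc2a1 (0.12 and 0.095, spot SEs 0.021 and 0.022), both read by 10 spots, were also past 2 spot SEs upward in both tissues. So 5 of 36 vascular genes were past 2 spot SEs upward in both tissues, beside 2.22% of all genes, a share not matched for the number of spots. Pools of both tissues may hold the same rats, so this does not count independent repeats. Slco1a4 was not past them in prefrontal cortex after normexp correction (0.076) or under median scaling (0.11), which leaves 4.

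RefSeq promoters (assembly GRCr8, 250 bases before to 50 after a gene's start) matched 27 of the 40 genes, with 28 promoters. They were searched on both strands for CAGGAAG, a form of the core site of ETS factors, the family that governs many endothelial genes. CAGGAAG was found in 5 of 21 endothelial promoters (23.8%; Abcg2, Egfl7, Emcn, Robo4 and Tfrc) and in 0 of 7 mural promoters, beside 12.5% of all 33469 promoters. The 3 measured genes with CAGGAAG are shown because their state differences were unlike: Emcn and Abcg2 were higher in both depressive pools, and Tfrc differed by log2 -0.021 in cerebellum and 0.038 in prefrontal cortex at its brighter probe and by -0.29 and 0.013 at the other. Capitals mark CAGGAAG or its complement CTTCCTG, and each is written 5′ to 3′ along the gene's strand. A second motif, the 10-base CArG box, was also searched for. An exact match was in 0 of 21 endothelial and 0 of 7 mural promoters, beside 1.64% of all 33469. Near matches did not count, such as ccctatatgg in the Acta2 promoter, with a C among its A and T bases. Tagln and Myh11 were not among the genes with a promoter. The 0 thus does not show that contractile genes lack such sites. A match describes the letters only.
Emcn, chr2:228564289-228564588, plus strand: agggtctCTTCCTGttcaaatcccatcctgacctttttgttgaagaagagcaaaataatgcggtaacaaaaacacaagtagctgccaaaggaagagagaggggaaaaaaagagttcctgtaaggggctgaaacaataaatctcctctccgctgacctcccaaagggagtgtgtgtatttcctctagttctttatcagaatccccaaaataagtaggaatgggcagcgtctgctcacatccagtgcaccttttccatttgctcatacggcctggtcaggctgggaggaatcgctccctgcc
Abcg2, chr4:89075224-89075523, plus strand: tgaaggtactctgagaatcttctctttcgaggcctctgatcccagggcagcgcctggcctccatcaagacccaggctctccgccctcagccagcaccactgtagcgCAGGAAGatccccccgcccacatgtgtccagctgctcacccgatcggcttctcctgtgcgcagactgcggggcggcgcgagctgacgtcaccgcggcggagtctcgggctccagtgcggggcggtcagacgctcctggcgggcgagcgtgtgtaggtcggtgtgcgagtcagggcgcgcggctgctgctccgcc
Tfrc, chr11:81690269-81690568, minus strand: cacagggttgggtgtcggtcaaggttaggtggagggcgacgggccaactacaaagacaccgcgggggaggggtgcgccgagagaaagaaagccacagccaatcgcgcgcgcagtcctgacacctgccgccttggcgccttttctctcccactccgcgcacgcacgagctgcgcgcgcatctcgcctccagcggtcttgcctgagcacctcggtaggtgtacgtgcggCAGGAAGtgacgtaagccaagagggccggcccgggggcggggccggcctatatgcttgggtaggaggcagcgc
The match began 243 bases before the start in Emcn, 144 in Abcg2 and 23 in Tfrc.

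Slco1c1 and Slc7a5 had their wider difference in a single tissue. Slco1c1 was 210.3% in control and 257% in depressive cerebellum (log2 0.29, spot SE 0.051), but 347% and 345% in prefrontal cortex (log2 -0.011, spot SE 0.049). The control cerebellum array was the low value among the 4. Slc7a5 was 6.68% and 6.41% in cerebellum, 8.39% in control and 10.5% in depressive prefrontal cortex, which was the high value among the 4. That difference stood at the edge of the count (log2 0.32, spot SE 0.12), and was 0.23 after normexp correction. Mfsd2a was 0.12 and 0.12 on the log2 scale and Abcb1a 0.12 and 0.087, the latter with spot SEs of 0.31 and 0.16. Over the 9 transport genes, 6 were above 0 in cerebellum (median 0.12) and 8 in prefrontal cortex (median 0.10).

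Junction genes were near 0, with medians of 0.00 in cerebellum and 0.06 in prefrontal cortex. Cldn5 differed by -0.014 and 0.057 (spot SEs 0.056 and 0.050), Cdh5 by 0.0045 and 0.061, and Pecam1 by 0.0028 and -0.065. The median over the 5 receptors was 0.02 in cerebellum and 0.05 in prefrontal cortex. Kdr was 1.14-fold higher in depressive cerebellum (log2 0.19, spot SE 0.053) and 0.035 in prefrontal cortex, and Tie1 -0.23 (spot SE 0.15) and 0.053. The inducible adhesion genes Icam1 and Vcam1 differed by 0.048 and 0.014 in cerebellum and by 0.069 and 0.063 in prefrontal cortex, with spot SEs of 0.022 to 0.036. Sox17 was 0.886% in control and 0.505% in depressive prefrontal cortex, 1.75-fold lower (log2 -0.81, spot SE 0.51), but by -0.25 after normexp correction. In cerebellum, where Sox17 is 1 of the 2 genes counted lower, the measured log2 difference was -0.35 (spot SE 0.71), with a bound of at least 1.17-fold lower, but quantile scaling gave 0.014, so its direction there was not settled.

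**Figure D3:**
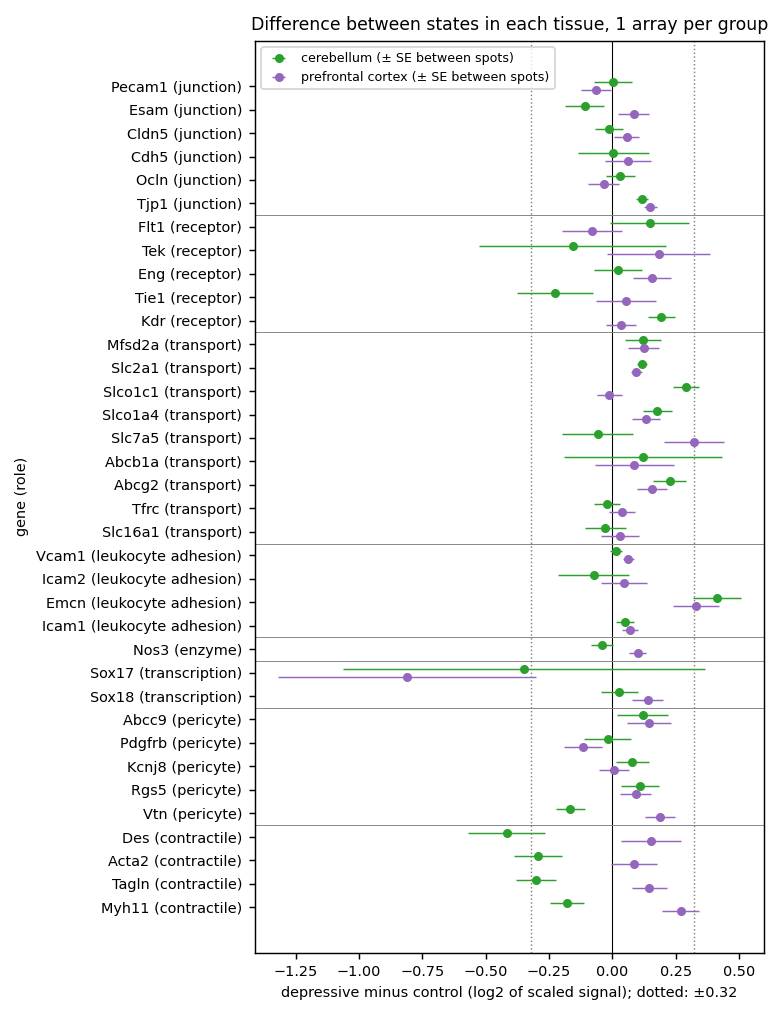
Depressive minus control for 36 vascular genes grouped by role (log2 of scaled signal; dots, with the SE between spots as bars), in cerebellum (green) and prefrontal cortex (purple), with dotted lines at 0.32 on either side of 0. Emcn is past the line in both tissues, and the 4 contractile genes and Vtn lie left of 0 in cerebellum and right of 0 in prefrontal cortex.

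The contractile genes took opposite signs in the tissues: 0 of 4 were above 0 in cerebellum (median -0.30) and 4 of 4 in prefrontal cortex (median 0.15). Of all 12201 genes measured in both, 3041 were below 0 in cerebellum and above it in prefrontal cortex. Tagln was 23.9% in control and 19.4% in depressive cerebellum, and 22.5% and 24.9% in prefrontal cortex, a log2 difference of -0.30 (spot SE 0.078) and then 0.15 (spot SE 0.069). The depressive cerebellum pool was the lowest of the 4 and the depressive prefrontal pool the highest. Acta2 followed the same order, at 14.1% and 11.5% in cerebellum and 13.7% and 14.6% in prefrontal cortex (log2 -0.29 and 0.086, spot SEs 0.094 and 0.092). Des was 1.34-fold lower in depressive cerebellum, at 5.29% beside 7.07%, the only measured mural gene past 0.32, and 7.92% beside 7.14% in prefrontal cortex (log2 -0.42 and 0.15, spot SEs 0.15 and 0.12). Myh11 differed by -0.18 (spot SE 0.066) in cerebellum and 0.27 (spot SE 0.074) in prefrontal cortex, and by -0.18 and 0.40 at its other probe.

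Vtn was -0.17 (spot SE 0.056) and 0.19 (spot SE 0.059). Tagln, Myh11 and Vtn were thus past 2 spot SEs downward in cerebellum and upward in prefrontal cortex, 3 of 36 vascular genes beside 0.59% of all genes. Tagln was not past them in prefrontal cortex after normexp correction (0.11) or under median scaling (0.12), which leaves 2. The signs of the contractile genes were the same under every other background, scaling and probe setting, except with files as linked, where 1 of 4 was above 0 in cerebellum and 3 of 4 in prefrontal cortex. The difference between the tissues was not tested, since each state had 1 pool in each.

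Pericyte genes other than Vtn did not divide in this way. Rgs5 was 0.11 and 0.092, Abcc9 0.12 and 0.14, Kcnj8 0.079 and 0.0073, and Pdgfrb -0.019 and -0.12 in cerebellum and prefrontal cortex. Over 5 pericyte genes the medians were 0.08 and 0.09. Averaged over its 3 probes Abcc9 gave 0.41 and -0.37, of which 2 probes were at background.

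Over other vascular lists the medians were near 0 between the states, while single genes lay well to either side. In cerebellum 13 of 30 other endothelial genes were above 0 (median -0.01) and in prefrontal cortex 20 of 29 (median 0.05). Their range was -0.55 to 0.52 in cerebellum and -0.14 to 0.26 in prefrontal cortex. Cd34, the highest in cerebellum, was dim there, at 33.2 in control and 51.9 in depressive before scaling. For other mural genes the counts were 10 of 28 (median -0.04) and 17 of 26 (median 0.05). Of 26 other mural genes measured in both, 12 were below 0 in cerebellum and above it in prefrontal cortex, beside 3041 of all 12201 genes. Of the 26, 0 were past 2 spot SEs both ways. Tbx18, a transcription factor of mural cells, was -0.18 and 0.43, and Pln, a regulator of the calcium pump in muscle, -0.19 and 0.29. Lmod1 had the opposite signs at 0.30 and -0.093, but was dim in cerebellum, at 57.6 in control and 77.3 in depressive before scaling. Foxc1, a transcription factor of mural cell development, was above 0 in both at 0.17 and 0.25. Among other barrier genes Slc22a8, an organic anion carrier that choroid plexus also makes, was 0.31 and 0.45 higher. Angiogenic genes had medians of 0.02 and -0.0013, with Adm, the vasodilator adrenomedullin, at 0.33 and 0.25. Genes of the barrier's Wnt pathway had medians of -0.09 and -0.04, with its transcription factor Lef1 at -0.55 in cerebellum and 0.00 in prefrontal cortex. Lef1 was also on the list of other endothelial genes, where it was the lowest in cerebellum.

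Markers of other cells differed between the pools too. All 7 blood cell genes were higher in the depressive pool of both tissues, with medians of 2.82 in cerebellum and 2.30 in prefrontal cortex, and their summed scaled signal was 2.96 and 13.6 in control and depressive cerebellum and 5.24 and 21.7 in prefrontal cortex. All 12 meningeal fibroblast genes were above 0 in prefrontal cortex (median 0.75) and 9 of 12 in cerebellum (median 0.12), where Col1a1, a collagen of fibroblasts, was -0.19. Choroid plexus genes were higher in depressive cerebellum (10 of 11, median 0.59) and mostly lower in depressive prefrontal cortex (3 of 8 above 0, median -0.61). The astrocyte median was -0.02 in both tissues, and the microglial median 0.06 and -0.07. Blood, meningeal and choroid markers thus moved with the pools in which the vascular genes were compared, and their part in the vascular values was not tested.

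**Figure D4:**
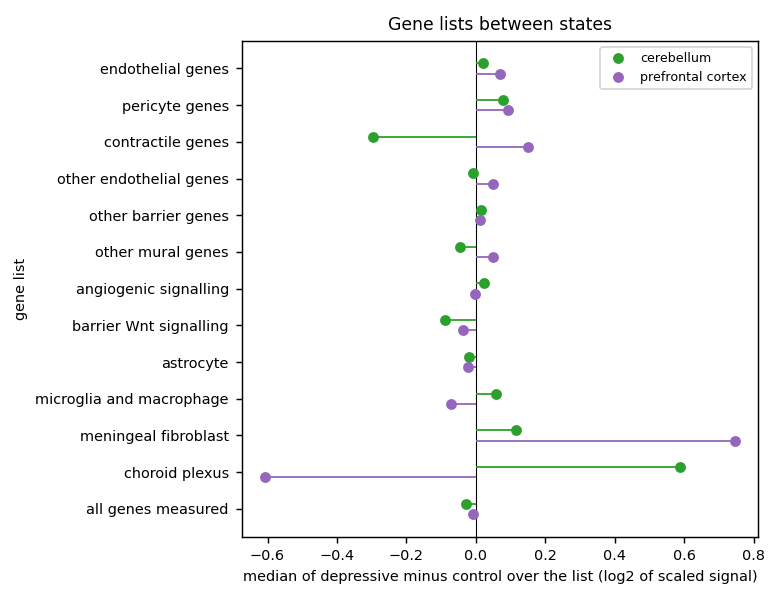
Median difference between depressive and control pools over each gene list (log2 of scaled signal), in cerebellum (green) and prefrontal cortex (purple), 1 array per group. Endothelial and pericyte genes lie within 0.10 of 0, and contractile genes lie at -0.30 and 0.15. Choroid plexus genes (0.59 and -0.61) and meningeal genes in prefrontal cortex (0.75) lie farther out, while meningeal genes in cerebellum lie at 0.12. Blood cell genes (2.82 and 2.30) are beyond the axis and not drawn.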

How the data were processed

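RNA from 4 pools of male rats was labelled with Cy3, 400 ng each, and measured on 4 one-colour Agilent arrays of 1 slide, per the labels' protocols. Agilent Feature Extraction (version 10.7.1.1, protocol GE1_107_Sep09, build rn4, per the file headers) read the scans. The deposited scanner files hold a processed intensity per spot, background-subtracted within the array, per the file headers, and the deposited value table holds intensity per probe, divided by a number per array whose origin the labels do not give.

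Each scanner file was given to the sample whose value-table column it matched, as described in the report, which exchanges the files linked to 2 samples. File names give the same reading. The description field of the depressive samples names the other tissue, and titles and characteristics were used instead. Control and outlier spots were left out, log2 intensity was averaged over a probe's spots, and the log2 of each array's 75th percentile over its spots was subtracted. The flag for well above background had to be set on at least 50% of a probe's spots. A RefSeq accession was present for 22031 of 30367 probes, and a RefSeq gene table named 18355. The brightest probe stood for a gene.

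Tissue and state were fitted together with lmFit and eBayes of limma 3.58.1 (R 4.3.3) on 11623 genes well above background on all 4 arrays, with 1 residual and 2.40 prior degrees of freedom, and called at a Benjamini-Hochberg adjusted p of 0.05. Nothing says how the pools relate, or whether the 2 tissues of a state came from the same rats. With 1 pool per tissue and state, the residual is how far the state difference was unlike in the 2 tissues. The p-values rest on that residual and the spread shared over genes. They do not measure a spread between replicate pools or between rats. The spot SE came from the variance between spots of 2-spot probes in 20 bins of brightness per array. Tested on simulated data for the tissue fit, with 200 of 11623 genes changed, the fit recovered 97% at log2 0.5, 99% at 1 and 100% at 2, with 46, 24 and 31 false calls. The simulated errors were independent and normal, with no difference between states. Only those 200 genes differed between tissues, where the fit of the data called 72.8%. These rates therefore do not give the error of the calls made here. Where a gene was below background on 1 array of a pair, "at least" marks a fold taken against that array's lowest signal well above background, or the probe's own if higher.

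The alternatives were normexp (offset 50) on the median spot and background signals, quantile and median scaling, the mean over probes, the value table, no filter on dim genes, no state term, files as linked, and each array left out, which also drops the state term because 3 arrays leave no residual degree of freedom with it. The median signal was used because the mean is not among the columns. The genes and all lists were chosen with earlier results of these data known. All 40 genes could be named, and of each other list up to 4 with the largest difference in the comparison, and for blood, meningeal, choroid, cerebellar and cortical markers also the 3 brightest. The number of arrays limits the precision.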

Additional observations from a re-analysis of the deposited data

Results flagged for a closer look

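In 3 mural genes the depressive pool was lower than the control pool in cerebellum and higher in prefrontal cortex, each past 2 spot SEs (Tagln not after normexp correction or under median scaling), and the difference between the tissues was not tested because each state had 1 pool per tissue. The cerebellum value minus the prefrontal cortex value was -0.45 on the log2 scale for Tagln (-0.30 against 0.15), -0.45 for Myh11 (-0.18 against 0.27) and -0.35 for Vtn (-0.17 against 0.19).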

How the results depend on the processing

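With scanner files as linked, 0 vascular genes were called between tissues and 29 between states, the endothelial medians were -0.038 between tissues and 0.51 and 0.57 between states (cerebellum, prefrontal cortex), and the mural medians -0.011, 0.014 (reversed) and 0.43. Signs then changed for 14 of 36 genes between tissues, 12 between states in cerebellum and 10 in prefrontal cortex. Among genes called between tissues these were Pecam1 (0.031), Tie1 (0.086), Esam (0.013), Ocln (0.0015), Icam2 (0.014), Pdgfrb (0.068), Slc16a1 (-0.0015), Myh11 (-0.045) and Vtn (-0.011), and among genes past 0.32 between states Sox17 (1.13 and 0.66) and Des (0.014 in cerebellum). Quantile scaling turned Sox17 in cerebellum to 0.014. The tissue medians were -0.44 (endothelial) and -0.21 (mural) under quantile scaling, -0.45 and -0.22 under median scaling, and the mural one -0.37 with no filter on dim genes. Over all genes quantile scaling moved the tissue median from -0.038 to 0.081. With each array left out and, of necessity, no state term, calls between tissues numbered 22 to 28 and the mural median ran from -0.38 to -0.089. Calls numbered 30 after normexp, 27 under quantile or median scaling, the value table or no state term, 29 with the mean over probes and 20 with no filter. The endothelial tissue median kept its sign in all of these. The causes were not tested. The tissue fit takes state as a block, and the labels number no replicates by which pools could be paired otherwise. Dim signal limits Sox17, Tek and Abcb1a, with spot SEs up to 0.71.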
